A study of Mus musculus with 2 samples.

Results

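The nuclear-encoded subunit genes of mitochondrial oxidative phosphorylation were taken from the gene tables by symbol. Symbols beginning with Ndufa, Ndufb, Ndufc, Ndufs, Ndufv, Uqcr, Cox4 to Cox8 or Atp5, together with Sdha, Sdhb, Sdhc and Sdhd, were kept, and Ndufaf genes (assembly factors) and symbols carrying -ps were left out. This gave 86 of the 31253 genes in the tables: 36 of complex I, 4 of complex II, 8 of complex III, 20 of complex IV and 18 of complex V. The symbol Atp5o names 2 of these genes. The rule reads symbols only. The study profiled single cells of E12.5 mouse brain after enrichment with CD31 beads, with 1 library of genotype Foxq1flox/flox, in which Foxq1 carries loxP sites, and 1 of genotype Foxq1iECKO, in which Foxq1, a forkhead transcription factor, was deleted from endothelial cells. The sources used here do not name the Cre driver, the induction or the number of embryos behind each library. With 1 library per genotype there is no replicate error. Differences between libraries are therefore given with 95% counting intervals, which cover counting error only, and no test of genotype was possible.

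Oxidative phosphorylation runs in the inner mitochondrial membrane. Complexes I and II pass electrons from NADH and succinate to ubiquinone, complex III passes them to cytochrome c, complex IV reduces oxygen, and complex V, the ATP synthase, uses the resulting proton gradient to make ATP. Most subunits are encoded in the nucleus, and 13 proteins of complexes I, III, IV and V are encoded by the mitochondrial genome and appear in the tables as mt- genes. Several complex IV subunits exist as tissue isoforms. Endothelial cells are known for a strong reliance on glycolysis, and brain barrier endothelium for a high content of mitochondria.

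Promoters of these genes are known for sites of the transcription factors NRF1 and GABPA (NRF2), so the promoter sequences were searched for both. A RefSeq promoter (GRCm38.p6, 250 bases before to 50 after the start) was matched for 69 of the 85 member symbols. The NRF1 motif (GCGCA, any base, then GCGC), on either strand, lay in 17 of the 69 (24.6%), against 5.19% of all 27025 gene symbols in the table and 12.1% of the 7261 that reached 10 CPM in these cells (CPM, UMIs of a gene scaled to a total of 1e+06 UMIs). The GABPA motif CCGGAAG also lay in 17 (24.6%), against 9.93% and 20.3%. Neither motif was present in 39 of the 69. Both were present in Sdhd, Cox6a1, Atp5h and Atp5k. For the 3 of these in which both motifs fall within the 250 bases upstream of the start, those bases are shown in the direction of transcription, with motif matches in capitals. These genes encode a membrane anchor of complex II, a complex IV subunit and the stalk subunit d of ATP synthase.
Sdhd (chr9:50603850-50604099, minus strand): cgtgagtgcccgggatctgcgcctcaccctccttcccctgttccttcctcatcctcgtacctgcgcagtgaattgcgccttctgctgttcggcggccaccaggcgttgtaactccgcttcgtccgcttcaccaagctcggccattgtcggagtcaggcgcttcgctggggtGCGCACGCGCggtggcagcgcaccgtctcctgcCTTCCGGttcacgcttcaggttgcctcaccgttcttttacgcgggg
Cox6a1 (chr5:115348959-115349208, minus strand): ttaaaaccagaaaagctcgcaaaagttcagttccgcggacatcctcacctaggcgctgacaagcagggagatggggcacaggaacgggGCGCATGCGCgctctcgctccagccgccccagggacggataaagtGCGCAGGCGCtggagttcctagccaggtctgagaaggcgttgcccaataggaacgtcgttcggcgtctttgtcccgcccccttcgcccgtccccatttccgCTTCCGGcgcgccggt
Atp5h (chr11:115419920-115420169, minus strand): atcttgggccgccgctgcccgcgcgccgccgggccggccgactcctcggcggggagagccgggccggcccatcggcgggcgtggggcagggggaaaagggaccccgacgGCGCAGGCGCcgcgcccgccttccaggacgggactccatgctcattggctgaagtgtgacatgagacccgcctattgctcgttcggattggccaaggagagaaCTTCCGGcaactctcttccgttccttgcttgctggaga
In Sdhd the NRF1 match begins 79 bases and the GABPA match 46 bases before the start. Cox6a1 has 2 NRF1 matches, at 162 and 117 bases, and a GABPA match at 16 bases. In Atp5h they lie at 141 and 38 bases. Motif matches are descriptions of these letters only. Among other motifs searched on both strands, YY1 (ATGGCGG) lay in 10 of the 69 (14.5%; all symbols 4.69%, those at 10 CPM 9.75%) and ERR (AAGGTCA) in 8 (11.6%; 5.38% and 3.55%). The hypoxia core ACGTG lay in 17 (24.6%; 21.8% and 30.1%), a share below that of the symbols at 10 CPM.

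The deposited tables held 15837 barcodes and 76580165 unique molecular identifiers (UMIs, 1 per captured mRNA molecule) for Foxq1flox/flox, and 15108 barcodes and 72445925 UMIs for Foxq1iECKO. After filtering and removal of 534 and 516 predicted doublets, 13399 and 12592 cells were used, and 270 barcode sequences occurred in both libraries. Clusters were named from marker genes, and only some of the CD31-selected cells fell into endothelial clusters. Members and mt- genes were kept out of the clustering. Endothelial-like cells numbered 2298 and 1606 of these, given here and below in the order Foxq1flox/flox, Foxq1iECKO, and Kdr, Cdh5, Flt1 and Esam marked them. A separate cluster with both endothelial and pericyte markers (462 and 823 cells) was kept apart. Foxq1 itself fell from 446 to 148 CPM in endothelial-like cells, a log2 ratio of -1.59 (interval -1.68 to -1.51), so transcript remained in the library labelled Foxq1iECKO. The ratio was -0.998 within barrier endothelial cells, which made up 893 and 451 of the endothelial-like cells, -1.02 with endothelial subclusters weighted equally and -0.81 with the mixed cluster added. UMIs were counted at the ends of transcripts, so CPM were compared between genes without division by length.

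Of the classes with 200 or more cells in each library, lymphatic endothelial-like cells (Prox1, Ccl21a, Mmrn1) gave the highest share of their UMIs to the member genes, 1.42% and 1.53%. The mixed endothelial and pericyte cluster followed with 1.29% and 1.41%, and leukocyte-like cells with 1.22% and 1.26%. The order of leukocyte-like and endothelial-like cells depended on scaling: the mean log2 ratio of their summed members was 0.06, but -0.19 with DESeq2 and -0.18 with TMM (edgeR) size factors. Endothelial-like cells stood at 1.17% and 1.21%. Pericyte-like cells had 1.09% and 1.23%, so these neighbours changed places between the libraries. Cluster 11, led by Lyve1, F13a1 and Mrc1 and left unnamed, had 1.08% in both. Radial glia-like cells had 0.947% and 1.13%. Fibroblast-like, cartilage-like and macrophage-like cells lay close together at 0.892% and 0.926%, 0.871% and 0.933%, and 0.875% and 0.884%. Cluster 6 (Ibsp, Aldh1a2, Sp7) had 0.848% and 0.882%, neuron-like cells 0.827% and 0.886%, and cluster 18 (Dlx6os1, Dlx1) the lowest share, 0.752% and 0.823%. The few skeletal muscle-like cells (45 and 48) gave 1.31% and 1.35%.

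**Figure D1:**
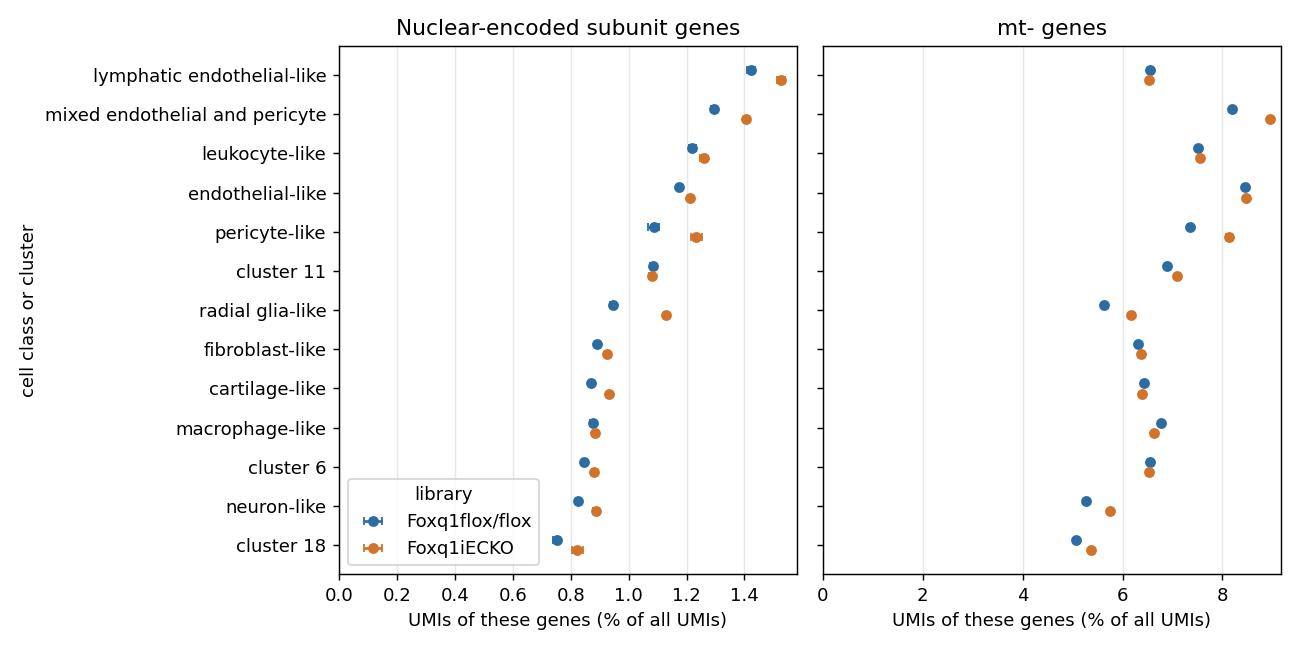
Share of all UMIs (x axes, percent) that came from the 86 nuclear-encoded subunit genes (left) and the mt- genes (right) in each class or cluster (y axis). Points are libraries and bars 95% binomial intervals, mostly smaller than the points. Lymphatic endothelial-like cells lead on the left with 1.42% and 1.53%, whereas endothelial-like cells, at 8.46% and 8.47%, are among the highest on the right.

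The mt- genes followed another order. They took 8.46% and 8.47% of UMIs in endothelial-like cells and 8.20% and 8.94% in the mixed cluster, but 6.56% and 6.53% in lymphatic endothelial-like cells. Neuron-like cells (5.28% and 5.75%) and cluster 18 (5.08% and 5.37%) were low on both. Lymphatic endothelial-like cells accordingly had the fewest mt- UMIs per member UMI, 4.61 and 4.27, against 7.21 and 6.98 in endothelial-like cells. That the total UMIs of a cell move with these shares is described with the depth bins.

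The complexes took similar parts of the member UMIs in every class described. In endothelial-like cells complex V supplied 42.7% and 43.5%, complex IV 22.6% and 22.2%, complex I 19.4% and 19.3%, complex III 12.8% and 12.51% and complex II 2.57% and 2.54%. Neuron-like cells gave more to complex I, 23.0% and 23.5%, and less to complex III, 10.7% and 10.8%. Pericyte-like cells gave less to complex IV, 19.9% and 19.3%. Macrophage-like cells gave the most to complex II among these, 3.72% and 3.64%.

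Within endothelial-like cells the most abundant member was Atp5g3, a gene of the proton-carrying ring subunit c of ATP synthase, at 1324 and 1405 CPM. Atp5a1, the alpha subunit, followed at 784 and 879 CPM. Complex III was led by the hinge protein gene Uqcrh (632 and 614 CPM) and Uqcrb (436 and 444 CPM), and complex IV by the small subunit genes Cox7c (583 and 574 CPM) and Cox6c (387 and 392 CPM). Complex I was lower, with Ndufc2 at 279 and 295 CPM and Ndufb5 at 214 and 224 CPM, and complex II lowest, with Sdha, the flavoprotein, at 135 and 136 CPM and Sdhd at 99.8 and 111 CPM. The genes of 1 complex thus differed widely in counted molecules. Over all cells used, 65 members reached a mean of 10 CPM, 21 did not, and of those Cox8b and Cox8c had 0 UMIs in both libraries.

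Across the 9 named classes with 200 or more cells in each library, the members varied less than most genes. On the log2 scale with 5 CPM added, the median range from lowest to highest class was 0.83 for the 66 members at a mean of 10 CPM or more over the classes and 1.58 for all 9193 genes passing the same limit. The limit leaves out the 2 members with the widest ranges, Ndufa4l2 (3.60, mean 6.51 CPM) and Cox4i2 (2.12, mean 2.61 CPM). A range under 1 was found in 74.2% of the members and 23.5% of all genes. At 100 CPM or more the medians were 0.94 for 32 members and 1.45 for 2350 genes, and the 82 cytosolic ribosomal protein genes had a median of 1.33. The map of gene levels by class shows most rows of a class shaded alike, so a class high for 1 complex was generally high for the others.

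**Figure D2:**
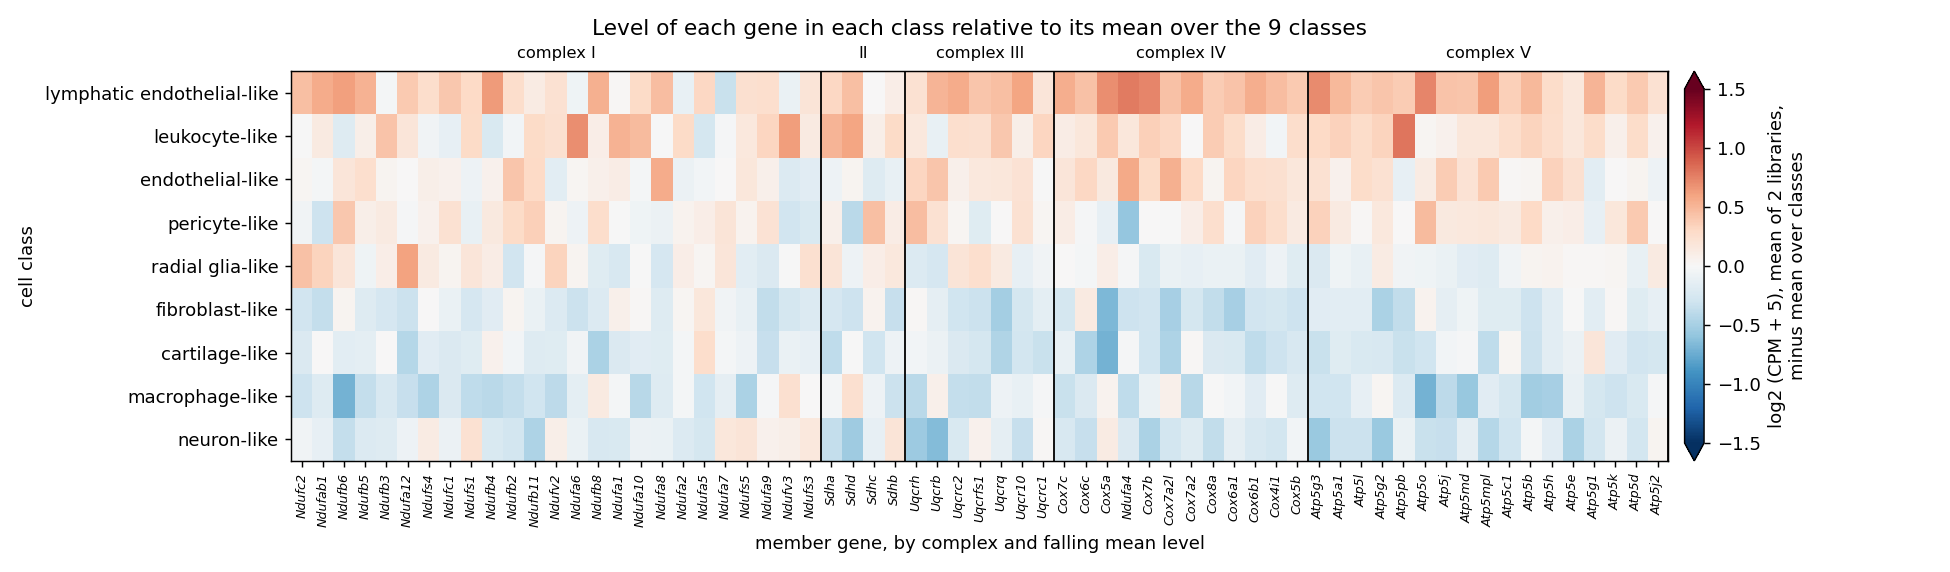
Level of 65 of the 66 members at 10 CPM or more (x axis, ordered by complex and by falling mean) in the 9 named classes (y axis). Colour gives the mean over both libraries of log2(CPM + 5) minus the gene's mean over the classes. The lymphatic row is mostly red and the macrophage and neuron rows mostly blue in all complexes, and Ndufa4 in pericyte-like cells, Atp5pb in leukocyte-like cells and Ndufa12 in radial glia-like cells stand out from their rows.

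Each class was then set against endothelial-like cells within each library, and a gene was called where the ratio reached 1.5 and the counting interval excluded 1, in the same direction in both libraries. These comparisons share the endothelial-like cells. In lymphatic endothelial-like cells 1 of 67 measured members, Atp5g1, was called higher and 0 lower, against 10.4% and 11.5% of all genes. The shift was small and broad instead: the median member lay 0.31 and 0.30 above endothelial-like cells on the log2 scale (all genes 0.09 and 0.08), and the summed members 0.28 (interval 0.26 to 0.29) and 0.33 (0.31 to 0.35). Atp5g3 reached 1830 and 2002 CPM there, Cox5a, a complex IV subunit gene, 465 and 532 CPM, and Ndufb6 280.5 and 311 CPM. For Cox5a the endothelial-like values were 315 and 360 CPM, below both lymphatic values.

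Other classes held members at lower levels than endothelial-like cells. None of the members was called higher in neuron-like, macrophage-like, fibroblast-like, cartilage-like or radial glia-like cells or in cluster 6 or cluster 18. In neuron-like cells 14 of 66 members were called lower, against 21.0% of all genes, while 35.6% of all genes were called higher. Atp5g3 was among the 14, at 801 and 779 CPM, and so was Uqcrb at 195 and 217 CPM. In macrophage-like cells 10 of 65 were lower (all genes 23.5%, and 22.3% higher), in cartilage-like cells 10 of 65 (16.7%, and 24.7%), in fibroblast-like cells 7 of 64 (14.1%, and 24.9%) and in radial glia-like cells 2 of 66 (17.5%, and 35.3%). In cluster 6 the count was 13 of 64 (14.3%, and 26.3%) and in cluster 18 it was 20 of 65 (20.4%, and 35.6%). The counts were near or under the background except in clusters 6 and 18, where they exceeded it. As log2 ratios to endothelial-like cells, summed members stood at -0.50 and -0.45 in neuron-like cells and at -0.42 and -0.46 in macrophage-like cells. The direction held for these 2 classes under each of the 11 alternatives run, which ranged from -0.81 to -0.32 and from -0.49 to -0.26.

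Some genes departed from the class they were in. Atp5pb, the peripheral stalk subunit b of ATP synthase, had 610 and 694 CPM in leukocyte-like cells and 334 and 349 CPM in endothelial-like cells. Within the leukocyte-like clusters it was highest in the one led by Cpa3, Cma1 and Gzmb, at 836 and 928 CPM, and lower in the one led by H2-Aa, Trbc2 and Il2rb, at 414 and 429 CPM. Atp5pb and Ndufv3 were the members called higher in leukocyte-like cells (2 of 67; all genes 27.5%) and Ndufa8 the one called lower (1 of 67; 17.8%). Sdhd was also highest in leukocyte-like cells, at 154 and 159 CPM, against 67.0 and 70.5 CPM in neuron-like cells. Ndufa12 was highest in radial glia-like cells, at 171 and 199 CPM, against 116 and 124 CPM in endothelial-like cells. Cluster 11 had Sdhc and Ndufv3 called higher (2 of 66; 22.6%) and Uqcrh and Atp5md lower (2 of 66; 19.5%).

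The clearest differences in kind were between isoforms of complex IV subunits in pericyte-like cells. Ndufa4l2, a hypoxia-inducible paralogue of Ndufa4, had 49.1 and 63.2 CPM (59 and 82 UMIs) in pericyte-like cells and 23.8 and 31.4 CPM in the mixed cluster. In endothelial-like cells it had 0.776 and 1.02 CPM (12 and 10 UMIs), and in lymphatic endothelial-like cells 0 UMIs, which allows up to 0.996 and 1.08 CPM. Among the other named classes and the unnamed clusters 6, 11 and 18, the highest value was 1.12 CPM, and barrier endothelial cells had 1.73 and 2.15 CPM. The mean log2 ratio to endothelial-like cells was 5.97. Ndufa4, the subunit long assigned to complex I and now placed in complex IV, went the other way, with 137 and 165 CPM in pericyte-like cells against 333 and 344 CPM in endothelial-like cells, a mean log2 ratio of -1.17. Ndufa4l2 was the member called higher in pericyte-like cells and Ndufa4 the member called lower, each 1 of 67, against 17.7% and 10.7% of all genes. Ndufa4l2 was also the 1 member of 67 called higher in the mixed cluster, with 0 lower, against 6.95% and 5.6%. Ndufa4 remained the more abundant of the pair there. Ndufa4l2 reached the 10 CPM limit only through its level in the pericyte-like or mixed cells. A call in the other direction was therefore not possible, and its calls add nothing to the CPM given above.

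Cox4i2, the hypoxia-responsive isoform of Cox4i1, also peaked in pericyte-like cells, at 19.97 and 15.4 CPM (24 and 20 UMIs). It had 11.6 and 10.2 CPM in the mixed cluster, 2.56 and 1.958 CPM in cartilage-like cells and 0.453 and 0.508 CPM (7 and 5 UMIs) in endothelial-like cells. Cox4i1 stayed at 72.4 and 73.2 CPM in pericyte-like and 79.2 and 64.6 CPM in endothelial-like cells, so its level did not separate these classes. When each cell was thinned to 2000 UMIs, which left out 38 and 49 shallower pericyte-like and 359 and 316 endothelial-like cells, an Ndufa4l2 UMI was found in 9.76% (exact binomial interval 6.35 to 14.2) and 11.9% (8.31 to 16.4) of pericyte-like cells and 0.103% (0.0125 to 0.372) and 0.310% (0.0845 to 0.792) of endothelial-like cells. Without thinning the shares were 17.96% and 22.4% against 0.435% and 0.560%, and 0.134% and 0.0926% in neuron-like cells, a class that should lack the gene. Median UMIs per cell were 3736.5 and 3685 in pericyte-like, 4233 and 3938 in endothelial-like and 3362 and 3397.5 in neuron-like cells.

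**Figure D3:**
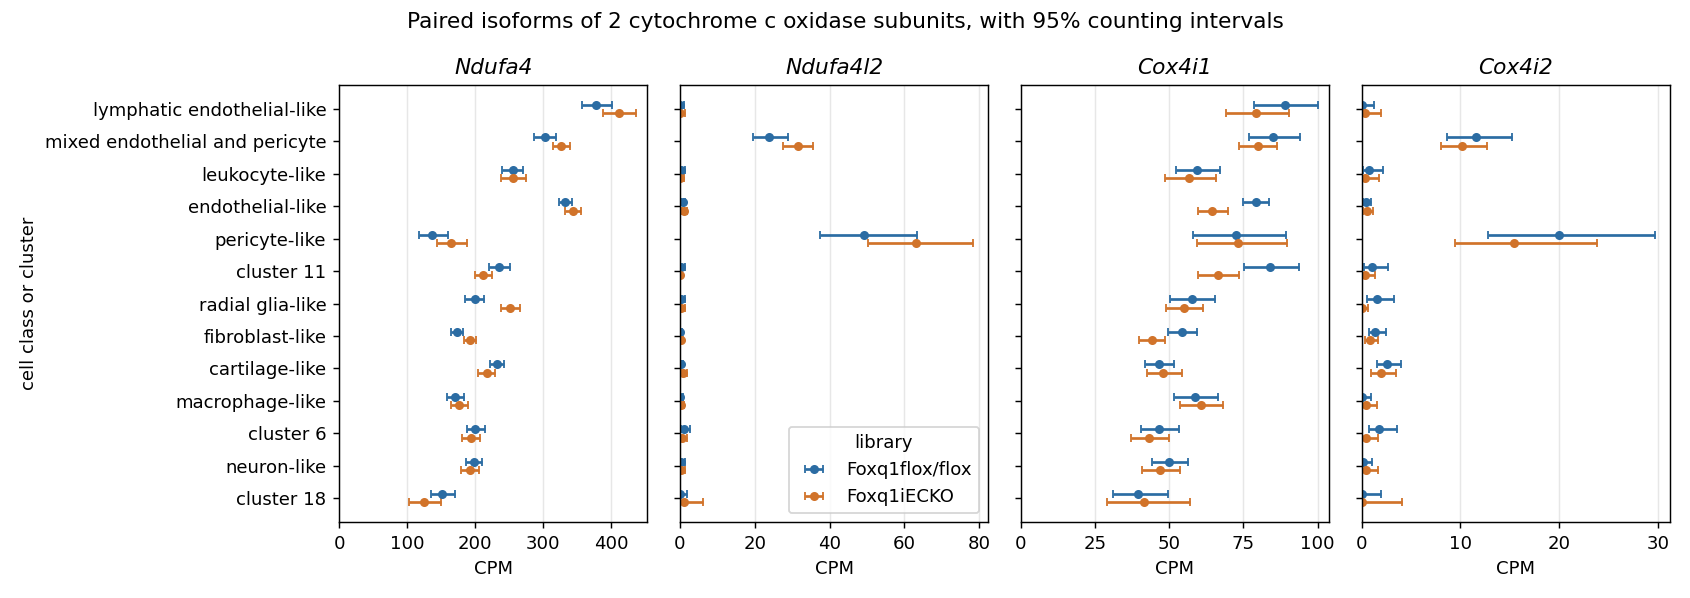
CPM (x axes, linear from 0, a separate scale for each gene) of Ndufa4, Ndufa4l2, Cox4i1 and Cox4i2 in each class or cluster (y axis), with libraries as points and 95% counting intervals as bars. Ndufa4l2 and Cox4i2 are highest in the pericyte-like and mixed rows, at 49.1 and 63.2 CPM for Ndufa4l2 in pericyte-like cells, where Ndufa4 is at its lowest among the named classes.

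The other isoform pairs were expressed one-sidedly. Cox6a1 had 107 and 99.2 CPM in endothelial-like cells, whereas its heart and muscle isoform Cox6a2 had 10 and 11 UMIs in all cells used, 8 and 8 of them in the leukocyte-like cluster led by H2-Aa, Trbc2 and Il2rb. Cox7a2 had 151 and 167 CPM in endothelial-like cells and Cox7a1, the muscle isoform, 12 and 12 UMIs in all cells used. Cox6b1 had 105 and 90.8 CPM and Cox6b2, the testis isoform, 0.518 and 0.305 CPM. Cox8a had 130 and 131 CPM. Cox6a2 and Cox7a1 also had 0 UMIs in the skeletal muscle-like cells, where 3 UMIs would have been 10.7 and 9.58 CPM. Of the subunit c genes, Atp5g3 exceeded Atp5g2 (457 and 470 CPM) and Atp5g1 (31.8 and 29.2 CPM), although the mature proteins they encode are the same. Cox7a2l, a supercomplex assembly factor, was highest in endothelial-like cells among the 9 classes, at 201 and 194 CPM, with lymphatic endothelial-like cells close at 185 and 187 CPM and fibroblast-like cells lowest at 91.4 and 97.3 CPM.

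Shares moved with the number of UMIs per cell. In endothelial-like cells the member share rose from 0.887% and 0.957% at 1000 to 3000 UMIs to 1.35% and 1.39% at 12000 UMIs and over, and the mt- share fell from 10.6% and 10.2% to 7.91% and 7.997%. Lymphatic endothelial-like cells have more UMIs per cell (median 9410 and 9669), but were above endothelial-like cells in each of the 4 bins, with 1.20% and 1.32% against 0.971% and 1.06% at 3000 to 6000 UMIs. Pericyte-like cells were also above endothelial-like cells in that bin, at 1.08% and 1.247%, but at 6000 to 12000 UMIs only in the Foxq1iECKO library (1.06% and 1.20% against 1.09% and 1.16%). With all cells pooled, pericyte-like cells were the lower of the pair for Foxq1flox/flox and slightly the higher for Foxq1iECKO. The pooled ratio of pericyte-like to endothelial-like cells, a mean log2 of -0.04, turned to 0.14 in cells with under 12000 UMIs and to 0.09 after thinning. Neuron-like cells (0.811% and 0.835%) stayed below.

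**Figure D4:**
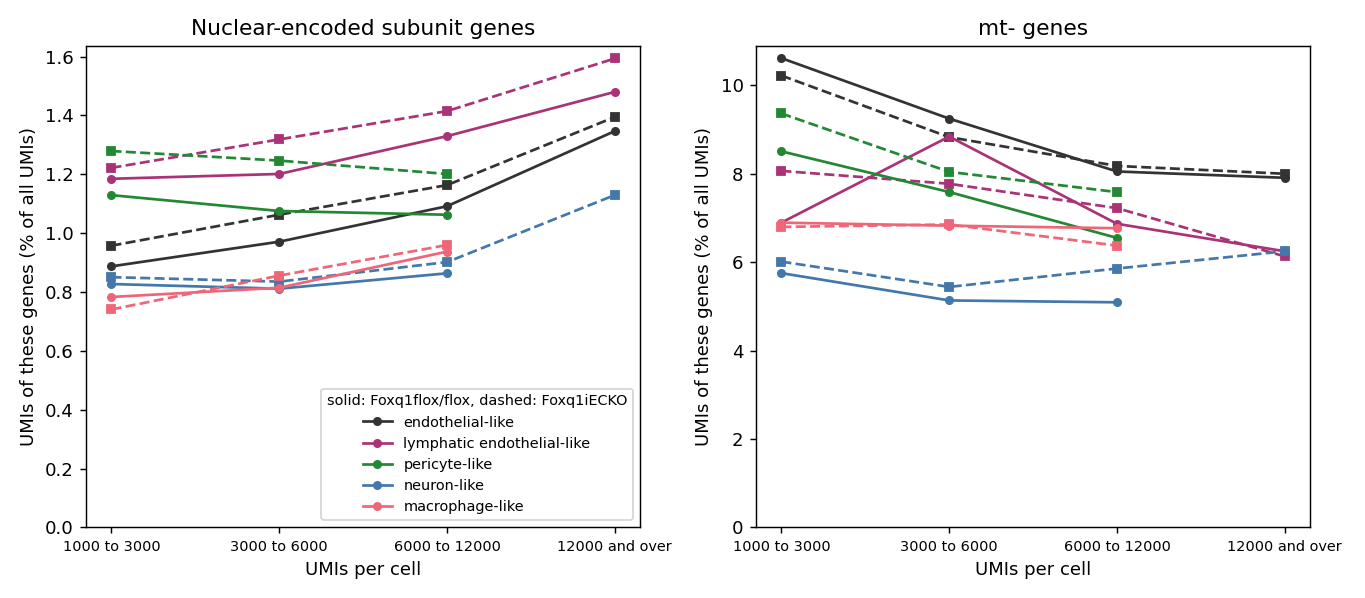
Share of all UMIs (y axes, percent) from the nuclear-encoded subunit genes (left) and mt- genes (right) in cells grouped by their UMIs (x axes), for 5 classes. Solid lines with circles are the Foxq1flox/flox library and dashed lines with squares the Foxq1iECKO library, and groups under 20 cells are not drawn. In endothelial-like cells the member share rises from 0.887% and 0.957% to 1.35% and 1.39% while the mt- share falls.

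Endothelial-like subclusters differed in the same measure. Subcluster 7, led by Gap43, Birc5 and Mthfd2, had 1.43% and 1.42%, with median UMIs of 9873.5 and 9317. Subcluster 3, led by Fam13a, Cxcl12 and Slc1a4 and carrying barrier markers, had 0.773% and 0.814%, with medians of 2337 and 2232 and the most mt- UMIs per member UMI, 14.3 and 12.3. Barrier endothelial cells together (893 and 451 cells) had 1.11% and 1.10%, against 1.22% and 1.248% in the remaining endothelial-like cells (1405 and 1155 cells). They were lower in every depth bin, for example 1.04% and 1.10% against 1.14% and 1.19% at 6000 to 12000 UMIs. Subcluster 2, led by the macrophage genes Ccl3, Ccl4 and Ly86, had 1.08% and 1.09%, and whether RNA of other cells bears on it was not tested.

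The second comparison, between genotypes, asks what loss of endothelial Foxq1 does to these genes. In endothelial-like cells 65 members were measured (mean of 10 CPM or more), and 0 were called higher and 0 lower in the Foxq1iECKO library, while 0.804% of all 7834 genes were called higher and 0.804% lower. Summed members had a log2 ratio of 0.05 (interval 0.04 to 0.06), and the mt- genes 0.0025 (-0.0014 to 0.0065). Within the class, summed members gave 0.02 in cluster 0 (1101 and 608 cells) and 0.02 in cluster 13 (1197 and 998 cells), both below the pooled value, and the mt- genes 0.10 and -0.04. The median member lay at 0.02 and the median gene at -0.02. By complex, the summed log2 ratio was 0.04 for I, 0.03 for II, 0.01 for III, 0.02 for IV and 0.08 (0.06 to 0.09) for V. Among members below the 10 CPM limit, 2 passed the same size limit downwards. These were Ndufb9 (10.1 and 6.70 CPM, 156 and 66 UMIs, log2 -0.59) and Ndufb10 (5.37 and 3.45 CPM, 83 and 34 UMIs, log2 -0.64). The share of all genes under 10 CPM that pass it was not computed, so no background stands beside them. The count of 0 at 10 CPM or more is that of the pooled class. In subcluster 2 (Ccl3, Ccl4) 6 of 66 members were called lower, against 256 of 8624 genes. In subcluster 1 (Gja5, Dkk2) it was 3 of 65, against 177 of 7599. Subcluster 0 had 1 of 67 (105 of 7651) and subcluster 7 had 0 of 67 (124 of 7494). In each of these 0 members were called higher, against 260, 113, 161 and 62 genes in the same order.

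The largest upward ratios by the limit nearest 0 were in abundant genes. Ndufab1, the mitochondrial acyl carrier protein and a complex I subunit, had 198 and 232 CPM, a log2 ratio of 0.23 (0.15 to 0.31). Cox5a had 315 and 360 CPM, a ratio of 0.20 (0.13 to 0.26), and Atp5a1 784 and 879 CPM, a ratio of 0.16 (0.12 to 0.20). Atp5md (228 and 259 CPM) and Ndufb6 (206 and 231 CPM) had log2 ratios of 0.18 and 0.17, and Ndufa5, a scarce member at 20.9 and 26.3 CPM, had 0.33. These differences exceeded counting error but stayed below the limit of 1.5-fold, and the spread between embryos is unknown.

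Downward ratios were in scarcer genes. Ndufa6, a complex I accessory subunit, had 66.8 and 52.7 CPM, a log2 ratio of -0.34 (-0.50 to -0.19). Cox4i1 had 79.2 and 64.6 CPM, a ratio of -0.29 (-0.44 to -0.16), and Atp5h 55.3 and 45.2 CPM, a ratio of -0.29 (-0.46 to -0.13). Cox6b1 (-0.21), Sdhb, the iron-sulfur subunit of complex II (-0.34), and Uqcrc1, a core subunit of complex III (16.0 and 11.8 CPM, -0.44), completed the lowest 6. Uqcrc1 turned to 0.07 when endothelial cells were picked by a marker gate per cell. Outside endothelium, Cox4i1 was also lower in the Foxq1iECKO library in fibroblast-like cells, at 54.3 and 44.1 CPM. It was not lower in pericyte-like cells, whose values are given above. After thinning, a Cox4i1 UMI was found in 10.2% and 12.3% of macrophage-like cells. In neuron-like cells the shares were 8.78% and 7.61%, and in both classes the intervals of the libraries overlapped.

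**Figure D5:**
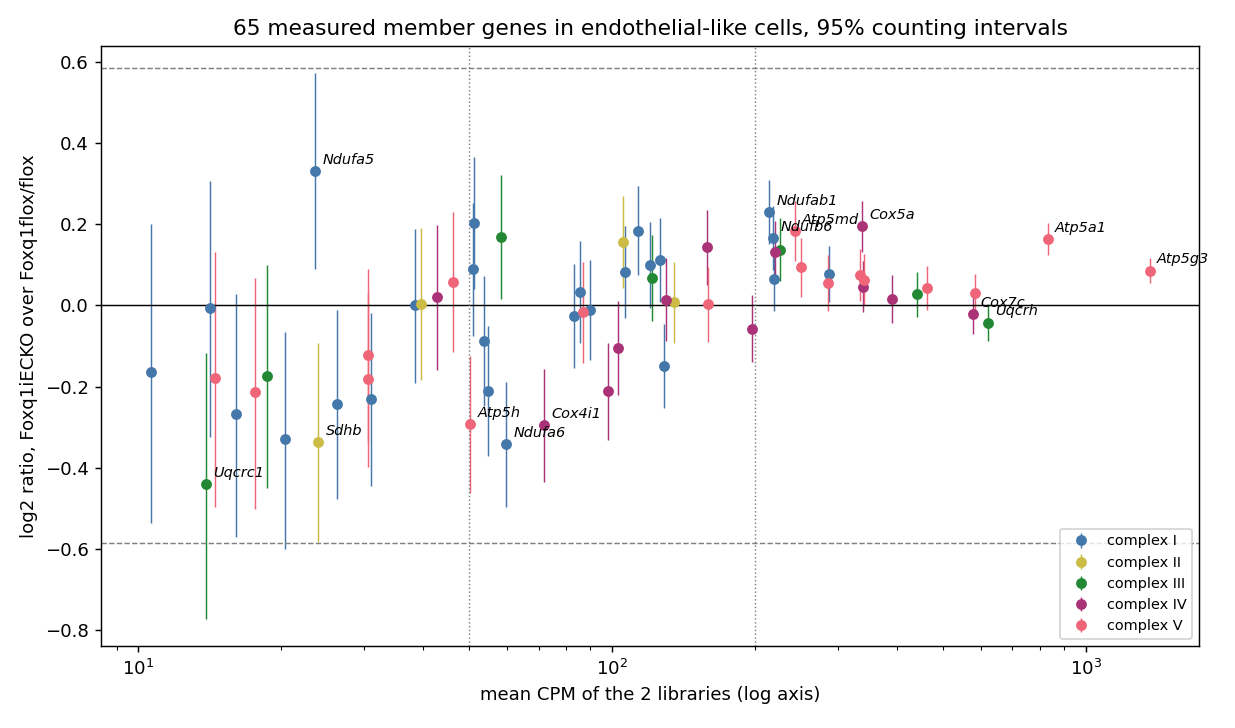
Log2 ratio of the Foxq1iECKO to the Foxq1flox/flox library (y axis) against mean CPM (x axis, log scale) for the 65 measured members in endothelial-like cells, coloured by complex, with 95% counting intervals. Dashed lines mark the 1.5-fold limit and dotted lines 50 and 200 CPM. No point passes the limit, and 19 of the 21 members at 200 CPM or more lie above 0 while 5 of the 18 under 50 CPM do.

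The sign of the ratio moved with the level of the gene. At 200 CPM or more, 19 of 21 members lay above 0, against 539 of all 1029 genes at that level. From 50 to 200 CPM the count was 14 of 26, against 1213 of 2689 genes, and from 10 to 50 CPM 5 of 18, against 1809 of 4116. Across the 65 members the correlation of log2 CPM with the log2 ratio was r = 0.54, and across all genes it was 0.03. This is a description across genes, which share both libraries and are not independent. The ratio also moved with GC content of the transcript (r = -0.34 across the members, -0.05 across all genes). GC content and level were themselves related among members (r = -0.33 with log2 CPM over all cells used), so these are not separate relations. The relation was weak in barrier endothelial cells, where r was 0.16 over 67 members. There 10 of 18 members lay above 0 at 200 CPM or more and 10 of 22 from 10 to 50 CPM. All genes in these cells ran the other way (r = -0.13), with 415 of 1029 and 2288 of 4056 above 0. Other classes varied. In fibroblast-like cells r was 0.50, with 10 of 13 members above 0 at 200 CPM or more and 5 of 23 from 10 to 50 CPM. All genes there gave 519 of 1077 and 1773 of 4360, with r = 0.06. In radial glia-like cells all 17 members at 200 CPM or more lay above 0, against 492 of 1043 genes. In leukocyte-like cells r was 0.22, with 15 of 20 members above 0 at 200 CPM or more. From 50 to 200 CPM 10 of 26 lay above 0, and from 10 to 50 CPM 15 of 22. All genes there gave 504 of 1001, 1238 of 2968 and 2029 of 4464 in the same order, with r = 0.02. Pericyte-like cells (r = 0.20) had median log2 ratios of 0.17, 0.21 and 0.17 from the lowest to the highest of these levels. For all genes the medians were -0.04, -0.05 and -0.01.

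Barrier endothelial cells, in which Foxq1 had 939 and 470 CPM, held 67 measured members, with 0 called higher and 1 lower, against 2.76% and 1.08% of all genes. The one lower was Sdhb, at 27.3 and 17.2 CPM, a log2 ratio of -0.66 (-1.20 to -0.16). Summed members had a log2 ratio of -0.01 (-0.03 to 0.01) and the mt- genes 0.07 (0.07 to 0.08). These cells joined subcluster 0 (644 and 270 cells) and subcluster 3 (249 and 181 cells), in different proportions in the libraries. Within subcluster 0 the ratio of summed members was 0.04 (0.01 to 0.06). In subcluster 3 the member share, given above, was also higher in the Foxq1iECKO library. Depth differed as well, with median UMIs per barrier cell of 4903 and 3369. Within bins of UMIs per cell the member share was higher in the Foxq1iECKO library in all 4: 0.775% and 0.866% at 1000 to 3000 UMIs, 0.916% and 0.991% at 3000 to 6000, 1.04% and 1.10% at 6000 to 12000, and 1.27% and 1.32% at 12000 and over. All endothelial-like cells together showed the same order in all 4 bins, for example 0.971% and 1.06% at 3000 to 6000 UMIs.

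Higher member shares in the Foxq1iECKO library were also found in other cells. The summed log2 ratio was 0.18 (0.15 to 0.22) in pericyte-like cells, 0.12 (0.11 to 0.13) in the mixed cluster, 0.10 (0.08 to 0.12) in lymphatic endothelial-like cells and 0.10 (0.08 to 0.12) in neuron-like cells. In the neuron-like class, the cluster led by Pou4f1 (1055 and 516 cells) was the larger for Foxq1flox/flox and the one led by Neurod6 (436 and 564 cells) for Foxq1iECKO, with ratios of 0.12 and 0.08 within them. Macrophage-like cells, at 0.01 (-0.01 to 0.04), showed no difference beyond counting error. Fibroblast-like cells had 0.05, and there the cluster led by Twist2 (759 and 508 cells) and the one led by Tnn (728 and 890 cells) were the largest in turn. Over all cells used the ratio was 0.09. None of the members was called in neuron-like (66 measured; 3.75% and 5.18% of all genes higher and lower), fibroblast-like (63; 1.71% and 1.4%) or leukocyte-like cells (68; 2.35% and 2.02%). Within single clusters a few were. The Neurod6 cluster had 2 of 66 lower (344 of 8662 genes) and the Pou4f1 cluster 1 of 66 higher (344 of 8894). A fibroblast-like cluster led by Cldn11 had 1 of 64 higher and 2 lower (126 and 279 of 8293), and the Twist2 and Tnn clusters had 0. Leukocyte-like clusters led by H2-Aa and by Cpa3 had 1 of 68 and 1 of 69 lower (247 of 8546 and 169 of 7893). An effect of genotype and a difference between 2 libraries cannot be told apart.

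The largest ratio was in radial glia-like cells, at 0.26 (0.24 to 0.27), with 2 of 66 members called higher, Ndufa1 (29.9 and 50.003 CPM) and Atp5md (147 and 232 CPM), and 0 lower, against 1.44% and 2.24% of all genes. The radial glia-like cluster led by Ttr and Fabp7 (361 and 382 cells) had 6 of 68 higher and 0 lower, against 236 and 326 of 8835 genes. The one led by Pax6 (638 and 712 cells) had 2 of 66 higher and 1 lower, against 130 and 253 of 8401. With 12000 UMIs or more, 94 radial glia-like cells of the Foxq1iECKO library had a member share of 1.425%. The other library had fewer than 20 such cells. Below that depth the shares were 1.01% and 1.02%, 0.908% and 0.973%, and 0.894% and 1.05%. In cells with under 12000 UMIs the ratio was 0.12. Pericyte-like cells with 12000 UMIs or more numbered fewer than 20 in each library. In the pericyte-like class Ndufa8 (23.3 and 40.1 CPM) and Ndufb2 (78.2 and 119 CPM) were among the 3 of 67 members called higher. Atp5g1 (39.9 and 24.7 CPM) was the 1 called lower, and 2.12% and 3.55% of all genes were called higher and lower. The log2 interval of Atp5g1, -1.39 to -0.02, shows the depth limit in that class. In lymphatic endothelial-like cells Ndufa1 was higher (38.2 and 59.4 CPM) and Ndufs5 lower (22.2 and 12.9 CPM), each 1 of 68, against 1.24% and 1.96%. Macrophage-like cells had 0 members higher and 3 lower of 65, Atp5g1, Atp5j2 and Ndufv3, against 3.3% and 1.22%. This class joined a cluster led by P2ry12 (727 and 760 cells) and one led by Rsad2 and Ifit1 (80 and 234 cells). Within the P2ry12 cluster 0 of 64 members were higher and 1 lower, against 139 and 87 of 7801 genes. Of 63 members in cartilage-like cells 0 were higher and 1 lower, Ndufv3 (1.41% and 1.39% of all genes). In cluster 6 Ndufs5 was higher (1 of 64, 0 lower; 1.51% and 2.15%), in cluster 11 Ndufv3 lower (1 of 67, 0 higher; 3.45% and 1.18%), and in cluster 18 Sdhc and Ndufa1 higher (2 of 65, 0 lower; 2.15% and 2.22%).

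The mt- protein genes gave no parallel shift in endothelial-like cells. The most abundant, mt-Co1, had 16747 and 16066 CPM (log2 -0.06), and mt-Cytb 11519 and 11945 CPM (0.05). The log2 ratios of the 13 genes ran from -0.17 for mt-Nd4l (1079 and 960 CPM) to 0.07 for mt-Nd1 (8491 and 8894 CPM). Nuclear and mt- genes moved together in pericyte-like cells (mt- genes 0.15), neuron-like cells (0.12), radial glia-like cells (0.13) and the mixed cluster (0.13), but not in lymphatic endothelial-like (-0.01) or macrophage-like cells (-0.03).

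Other genes of the pathway, taken from listed groups, were compared between genotypes in endothelial-like cells, where 0.804% of all genes were called higher and 0.804% lower. None of 9 measured genes from a list of respiratory partners (which includes Cyc1 and Cycs), 10 genes of mitochondrial DNA expression, 17 of the tricarboxylic acid cycle or 12 of glycolysis was called in either direction. Of 31 assembly factors 1 was called higher, Coa3. Of 9 regulators Myc was called higher, and of 59 mitochondrial ribosome genes Mrps26 was called lower. Their medians lay between -0.05 and 0.07 on the log2 scale.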

How the data were processed

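Single-cell 3-prime UMI counts from 1 library per genotype were analysed as deposited by the authors (raw counts per gene and barcode). Per the submitters' processing notes, fastp 0.24.0, STARsolo 2.7.11b and mm10 were used. Barcodes with at least 500 genes and 1000 UMIs and at most 20% mt- UMIs were kept, and doublets were predicted with Scrublet in scanpy 1.11.5. Cells were clustered (Leiden, resolution 1; endothelial-like cells again at 0.6) on 2000 variable genes without members and mt- genes, and clusters named from fixed markers. UMIs were summed per class and library. Log2 ratios carry exact 95% intervals for counting error, as PCR copies are removed by UMIs, and a call needs 1.5-fold, an interval excluding 1 and 10 CPM. Floors are 3 counts. Size factors of edgeR 4.0.16 and DESeq2 1.42.0 were alternatives only, because 1 library per group allows no test. Named genes were the 2 most abundant of each complex, the 6 highest and 6 lowest genotype ratios, the 12 widest ranges over classes, isoform pairs and called members; a few further members were named after their values were seen. The members and lists were chosen with earlier results of these data known. The calling rule was tested on simulated counts that held counting error only, so the test does not cover the spread between libraries. The values of 1 member are not reported here.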

Additional observations from a re-analysis of the deposited data

How the results depend on the processing

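With 1 library per genotype, the spread between embryos is unknown and scarce members are limited by counts. No paired analysis was possible because each group has 1 sample. Log2 ratios are given, and the cause of each shift was not tested. The restriction to cells with under 12000 UMIs was chosen after seeing the data. Of the called values, Foxq1 in endothelial-like cells and Ndufa4 and Ndufa4l2 in pericyte-like cells were recomputed, and their signs held in the 13, 10 and 10 alternatives run. Members called between genotypes in other cells were not recomputed. The count of called endothelial members (0) was 1 after thinning (Uqcrc1) and 1 with the mixed cluster added (Ndufa4l2). It was 5 at a lower fold limit and 2 without the CPM filter. The share of all genes called was not computed under these changed settings, so the counts have no background beside them.

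The summed endothelial members (0.049) kept their direction in all 14 alternatives: 0.027 at most 10% mt- UMIs, 0.11 under 12000 UMIs, 0.068 with DESeq2 or TMM (edgeR) scaling, 0.089 thinned to 2000 UMIs, 0.064 as a mean per cell, 0.13 by marker gate and 0.11 with the mixed cluster. The summed mt- genes (0.0025) kept it in 9 of 14. They gave 0.0091 with doublets kept, 0.0088 with mt-, haemoglobin and ribosomal protein genes left out of the total, 0.021 with DESeq2 or TMM and 0.047 with the mixed cluster. They turned to -0.029 under 12000 UMIs, -0.031 thinned, -0.030 per cell, -0.026 by marker gate and -0.051 with subclusters weighted equally. Barrier members (-0.010) kept it in 4 of 11, with 0.020 with doublets kept, 0.011 at clustering resolution 2, 0.013 with members among the variable genes, 0.082 under 12000 UMIs, 0.033 thinned, -0.032 with DESeq2 and -0.031 with TMM.

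Pericyte-like over endothelial-like members (-0.043) gave -0.11 at most 10% mt- UMIs, 0.14 under 12000 UMIs, -0.078 with the reduced total, -0.20 with DESeq2 or TMM, 0.095 thinned and 0.15 per cell. Macrophage-like cells (-0.44) gave -0.41 with doublets kept, -0.26 under 12000 UMIs, -0.49 with the reduced total, -0.36 with DESeq2, -0.37 with TMM or thinned and -0.32 per cell. Neuron-like cells (-0.48) gave -0.50 with members among the variable genes, at 2000 UMIs or more or at most 10% mt- UMIs, -0.32 under 12000 UMIs, -0.57 with the reduced total, -0.81 with DESeq2, -0.80 with TMM, -0.38 thinned and -0.33 per cell.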
